A study of Homo sapiens with 4 samples.

Results

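The expression of 10 tight junction genes was followed in the RNA-seq libraries of edited and wild-type MCF12A cells. They were chosen by symbol, with earlier results of these data known. They were split into membrane genes (*CLDN1*, *CLDN4*, *CLDN7*, *OCLN*, *MARVELD2*, *MARVELD3* and *F11R*) and scaffold genes (*TJP1*, *TJP3* and *CGN*). Of the 10 genes, 9 were analysed among the 16811 genes of the deposited table, and *MARVELD2* was not analysed here. MCF12A cells come from normal human breast epithelium and are not tumorigenic, although the labels name their source a breast cancer line. They were grown in medium with horse serum, EGF, hydrocortisone, cholera toxin and insulin, which both groups shared. The edited group comprised 2 libraries (edited replicates 1 and 2) of cells labelled *C1orf132* KO, in which CRISPR/Cas9 had removed the p2 promoter region of this long-noncoding RNA gene. The wild-type group comprised 2 libraries (wild-type replicates 1 and 2) of unedited cells. Edited colonies had been raised from single sorted cells, and the labels do not say which colony was sequenced, so an effect of the deletion cannot be told apart from a property of the colony. The study speaks of the edited cells both as knocked out and as knocked down, and the labels say KO. It calls the libraries of a group biological replicates without saying whether they came from separate cultures or colonies, so p-values may reflect a spread that is in part technical. RNA was poly(A)-selected and sequenced with single-end reads. *C1orf132* was not analysed here, so the labels could not be checked against the targeted gene.

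Tight junctions are the most apical contacts between epithelial cells and seal the space between them. Claudins are small proteins with 4 membrane-spanning segments whose extracellular loops join across neighbouring cells into strands. Occludin (OCLN), tricellulin (MARVELD2) and MARVELD3 form a second family in these strands, and F11R (JAM-A) is an immunoglobulin-type adhesion protein beside them. On the cytoplasmic side, the zonula occludens proteins encoded by the *TJP* genes bind claudin tails through PDZ domains and tie them to actin, and cingulin (CGN) joins this plaque to the actomyosin belt. Loss of these contacts is a known feature of cells that leave the epithelial state.

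The deposited values are an expression signal per gene whose normalization is not given in the sources used here. Scaling for transcript length was inferred from low values, of which 21.5% to 24.8% per library, among single-transcript genes in range, were whole multiples of a step per kb. That step was chosen for the greatest excess of whole multiples. Levels of different genes are set side by side on that inference. Values are given in the order replicate 1, replicate 2. For a transcript of 1 kb, 1 read was estimated to be worth 0.101 and 0.0893 in edited against 0.109 and 0.102 in wild-type libraries, so depth differed little. Read numbers below are estimates from the length of the canonical transcript. They are approximate and cover counting error only. All 15 mammary epithelial markers were listed in the table and their summed value was 9384 and 12482 in edited against 19176 and 25721 in wild-type libraries. Of these markers 12 had a lower and 3 a higher fitted level in edited cells, and at an adjusted p under 0.05 (limma) 5 were called lower (*CDH1*, *CDH3*, *EPCAM*, *KRT17* and *TP63*) and 1 higher (*KRT8*), named after their values were seen. Of the 9590 genes with a mean of at least 10, 43.3% had a lower fitted level, 4.2% were called lower and 2.89% higher. Of all 16811 genes these shares were 49.1%, 3.4% and 1.33%. Of 10 fibroblast markers 3 were analysed, with summed values of 30.5 and 225 in edited against 78.0 and 52.3 in wild-type libraries. The sum of edited replicate 2 came mostly from *DCN* (105) and *FAP* (114), which were not called. *COL1A1* was called lower, at 3.19 and 5.58 in edited against 15.6 and 28.1 in wild-type libraries (adjusted p = 0.0420 from limma). Of 6 immune markers 1 was analysed, of 4 adipocyte markers 1, and of 7 endothelial markers 0. The part of these markers in the results was not tested.

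All 9 analysed genes had a lower fitted level in edited than in wild-type cells, and 5 of them fell past an adjusted p of 0.05 (limma, Benjamini-Hochberg). The 5 genes were *CLDN7*, *MARVELD3*, *F11R*, *CGN* and *TJP3*, which include genes of both the membrane and the scaffold layer. *TJP1*, which encodes the central scaffold ZO-1, stood apart with a log2 fold change near 0. In bulk RNA, fewer cells with an intact junction and less RNA per cell cannot be told apart. Members whose mean reached 10 were tested among the 9590 genes of that level, of which 7.09% were called (4.2% lower and 2.89% higher). Of the 5 members in this class, 2 were called lower. *CLDN7*, 1 of these 2, reached a mean of 10 only through its wild-type libraries (edited mean 6.34). Genes under that mean were tested among all 16811 genes, of which 4.73% were called (3.4% lower and 1.33% higher), and 3 of the 4 members in this class were called lower. At an adjusted p under 0.001, 0 members were called, against 0.0104% of the 9590 genes (the only one being lower) and 0% of all genes. An unadjusted p under 0.05 (limma) was reached by 8 of the 9 members, but also by 3095 of the 9590 genes and by 4909 of all 16811 genes. The median log2 fold change of the 9 members was -1.69, against 0.09 over the 9590 genes and 0.01 over all genes. A lower fitted level was found for 43.3% of the 9590 genes and for 49.1% of all genes.

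**Figure D1:**
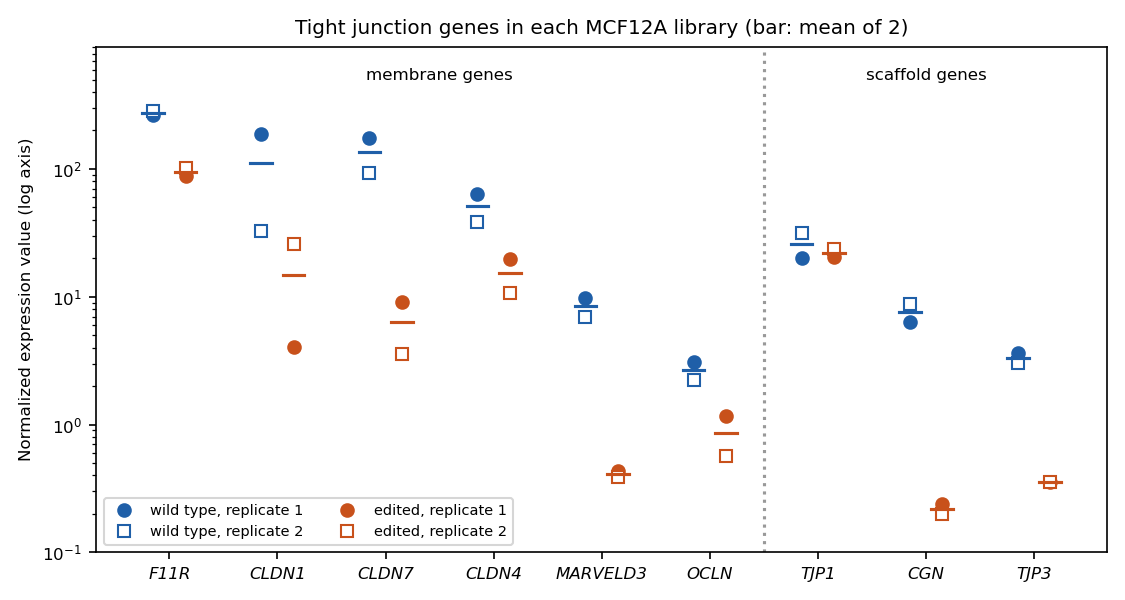
Normalized expression value (log axis) of the 9 analysed tight junction genes in each of the 4 libraries, with edited libraries in orange, wild-type libraries in blue, filled circles for replicate 1, open squares for replicate 2 and bars for the mean of 2. Edited libraries lie below both wild-type libraries for 8 genes, and the groups overlap for *TJP1*.

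Wild-type cells expressed the 9 genes over a wide range. *F11R* had the highest mean value (275), followed by *CLDN7* (135), *CLDN1* (110) and *CLDN4* (51.1). *TJP1* (25.8), *MARVELD3* (8.42), *CGN* (7.60), *TJP3* (3.34) and *OCLN* (2.67) were lower. The wild-type values of *CLDN1* ran from 32.7 to 188 and so overlapped those of *CLDN7* and *CLDN4*. *MARVELD3* overlapped with *CGN*, and *TJP3* with *OCLN*, so the order within these groups of neighbours lay within the spread of the replicates. In edited cells *F11R* was again the highest and *TJP1* came next (21.9). By mean value, *CLDN7* moved from rank 2 in wild-type to rank 5 in edited cells, and *CGN* from rank 7 to rank 9. The edited values of *CLDN1* ran from 4.07 to 25.7 and overlapped those of *TJP1*, *CLDN4* and *CLDN7*. The place of *CLDN1* among these genes thus lay within the spread of the replicates.

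Promoter sequences of 8 members were matched by symbol in RefSeq (GRCh38.p14). The 250 bases before the start site are shown for 4 of them, because these differ in how densely they carry CpG dinucleotides, which are written in capitals, and because they range from the strongest decrease to a gene that was not called. Each is written 5′ to 3′ along the transcribed strand. *CLDN4* lies at chr7:73830746-73830995 (plus strand), *CLDN7* at chr17:7263214-7263463 (minus strand), *CGN* at chr1:151511137-151511386 (plus strand) and *TJP1* at chr15:29969050-29969299 (minus strand). The window of *CGN* precedes a start site that lies inside the annotated span of the gene, downstream of its outermost start, whereas the windows of *CLDN4*, *CLDN7* and *TJP1* end at the outermost start.
CLDN4: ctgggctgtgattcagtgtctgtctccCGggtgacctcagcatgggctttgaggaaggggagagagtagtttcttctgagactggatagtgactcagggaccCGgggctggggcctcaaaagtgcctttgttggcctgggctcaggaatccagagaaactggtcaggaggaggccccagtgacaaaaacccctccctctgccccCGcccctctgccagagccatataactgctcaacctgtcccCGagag
CLDN7: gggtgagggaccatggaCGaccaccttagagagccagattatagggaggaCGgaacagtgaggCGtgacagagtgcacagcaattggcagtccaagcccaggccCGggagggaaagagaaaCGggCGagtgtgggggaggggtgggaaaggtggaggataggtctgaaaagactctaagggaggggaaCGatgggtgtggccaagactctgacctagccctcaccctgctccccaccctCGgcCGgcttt
CGN: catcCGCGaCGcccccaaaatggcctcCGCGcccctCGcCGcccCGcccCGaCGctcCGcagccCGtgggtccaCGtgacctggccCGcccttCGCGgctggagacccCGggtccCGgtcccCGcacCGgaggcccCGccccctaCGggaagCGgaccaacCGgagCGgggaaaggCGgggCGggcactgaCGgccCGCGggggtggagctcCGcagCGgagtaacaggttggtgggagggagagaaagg
TJP1: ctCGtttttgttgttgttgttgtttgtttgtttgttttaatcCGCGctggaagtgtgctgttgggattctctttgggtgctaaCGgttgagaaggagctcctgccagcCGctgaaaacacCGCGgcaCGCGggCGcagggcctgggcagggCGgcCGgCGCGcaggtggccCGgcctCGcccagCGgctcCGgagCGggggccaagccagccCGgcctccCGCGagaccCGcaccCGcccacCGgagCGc
The windows of *CLDN4* and *CLDN7* held 4 and 9 CpG dinucleotides, against 32 in *CGN* and 26 in *TJP1*, and the median over the promoters of 7008 tested genes was 22. *TJP3* held 12, *OCLN* 24 and *CLDN1* 28. Windows with 12 or fewer CpG made up 17.1% of the promoters of tested genes. The letters CAGGTG, an E-box searched on both strands, were found in 2 of the 8 windows, 33 bases upstream of the start in *OCLN* and 88 bases upstream in *TJP1*, and in 17.5% of all 35116 promoter windows of this length. The letters AACCGGTT, a grainyhead-type motif that reads the same on both strands, were in 0 of the 8 windows and in 0.117% of all windows. The looser form AACNNGTT was in 1 of the 8 windows, that of *CGN*, and in 3% of all windows.

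Among the membrane genes, *CLDN7* showed the largest decrease. It encodes claudin-7 and lies at chr17:7259903-7263213 on the minus strand. Its value was 9.08 and 3.60 in edited against 176 and 93.3 in wild-type libraries, from about 62 to 2493 reads per library. The groups were far apart, the lower wild-type value being 10.3 times the higher edited one. Edited cells averaged 6.34 ± 3.87 (SD, n = 2) against 135 ± 58.7 (SD, n = 2) in the wild type, so edited cells kept 4.70% of the wild-type level. On the log2 scale this was a change of -4.25 ± 0.46 (SE) with an adjusted p of 0.0132 from limma.

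*CLDN1*, which encodes claudin-1 (chr3:190305707-190322446, minus strand), varied within each group almost as much as between them. Its value was 4.07 and 25.7 in edited against 188 and 32.7 in wild-type libraries. The replicates of one group differed 6.31-fold in edited and 5.75-fold in wild-type cells, while the nearest values of the 2 groups, edited replicate 2 and wild-type replicate 2, differed only 1.27-fold. Its change of -2.78 ± 1.04 (SE, log2 scale, 95% interval -5.37 to -0.19) missed the threshold (adjusted p = 0.137 from limma). Without edited replicate 2 it was -3.98, and without wild-type replicate 2 it was -4.02. It was smaller without edited replicate 1 (-1.58) and without wild-type replicate 1 (-1.54). Each of these fits leaves 1 library in a group, so only the fitted change is given.

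*CLDN4* encodes claudin-4 and lies at chr7:73830996-73832690 on the plus strand. Its value was 19.8 and 10.7 in edited against 64.1 and 38.2 in wild-type libraries. The groups did not overlap, and edited cells kept 29.8% of the wild-type mean. On the log2 scale it changed by -1.69 ± 0.37 (SE) with an adjusted p of 0.0531 from limma, just outside the threshold. With equal library totals the adjusted p was 0.0398. It passed without edited replicate 1 (-2.11, adjusted p = 0.0148) and without edited replicate 2 (-1.28, adjusted p = 0.0414). Genes of chromosome 7 as a whole had a median log2 fold change 0.28 below that of all tested genes (-0.28), and the part of this shift in the value of *CLDN4* was not tested.

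*F11R*, the most abundant member, encodes junctional adhesion molecule A and lies at chr1:160995211-161021152. Its value was 88.6 and 102 in edited against 265 and 286 in wild-type libraries. Replicates lay close together, 1.15-fold apart in edited and 1.08-fold in wild-type cells, and the groups did not overlap. The decrease was to 34.6% of the wild-type level, with a change on the log2 scale of -1.53 ± 0.20 (SE, adjusted p = 0.0199 from limma).

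The genes of the occludin family were expressed at low levels. *MARVELD3* (chr16:71626184-71641965) was listed at 0.436 and 0.389 in edited against 9.84 and 6.99 in wild-type libraries, with about 13 reads per edited library, against 263 and 201 in wild type. Edited cells kept 4.91% of its wild-type level, a share close to that of *CLDN7*. Its change on the log2 scale was -2.72 ± 0.26 (SE, adjusted p = 0.0167 from limma over all genes), and the ratio of the means was 20.4, since a pseudocount of 1 understates changes of low genes. *OCLN* (chr5:69492547-69558104, plus strand) was listed at 1.16 and 0.571 in edited against 3.11 and 2.24 in wild-type libraries. Its groups did not overlap, but its change of -0.98 ± 0.30 (SE, log2 scale) missed the threshold (adjusted p = 0.107 from limma). The annotation lists a pseudogene of *OCLN*, *OCLNP1*, on the same chromosome. Whether reads from *OCLN* were split between them was not tested. Genes of chromosome 5 had a median log2 fold change 0.27 above that of all tested genes. The part of this shift in the value of *OCLN* was not tested.

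The 3 scaffold genes did not move alike. *CGN*, which encodes cingulin (chr1:151510170-151538692, plus strand), had the largest decrease of all members by the ratio of the means. It was listed at 0.238 and 0.201 in edited against 6.36 and 8.83 in wild-type libraries, with about 12 reads per edited library, against 298 and 444 in wild type. Edited cells kept 2.89% of the wild-type mean, a 34.6-fold difference between the means. On log2(value + 1) it changed by -2.80 ± 0.26 (SE, adjusted p = 0.0162 from limma over all genes), less than *CLDN7* (-4.25). With a pseudocount of 0.1 the 2 genes were close (-4.57 for *CGN* and -4.46 for *CLDN7*).

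*TJP3* encodes ZO-3, the zonula occludens protein most restricted to epithelia, and lies at chr19:3708384-3750813 on the plus strand. It was listed at 0.356 and 0.353 in edited against 3.66 and 3.02 in wild-type libraries, with 11 and 12 reads estimated in the edited libraries. Both edited values were thus nearly the same and lay far below the wild-type values. The mean fell to 10.6%, with a change on the log2 scale of -1.68 ± 0.25 (SE, adjusted p = 0.0371 from limma over all genes).

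*TJP1* (chr15:29699367-29969049, minus strand), which encodes ZO-1, was the member whose groups overlapped. Its value was 20.3 and 23.5 in edited against 20.0 and 31.7 in wild-type libraries. Wild-type replicate 1 had the lowest value of the 4 libraries and wild-type replicate 2 the highest. The log2 fold change was -0.20 with a 95% interval of -0.84 to 0.45 (adjusted p = 0.634 from limma), which leaves out a decrease as large as that of *TJP3* and includes smaller changes in both directions. Without wild-type replicate 2 the fitted change was 0.12.

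By layer, 3 of the 6 analysed membrane genes and 2 of the 3 scaffold genes were called lower, with median log2 fold changes of -2.21 and -1.68. Of the 9590 genes whose mean reached 10, 4.2% were called lower, and of all genes 3.4%. The order of the medians of the 2 layers depended on the pseudocount. With 0.1 in place of 1, the scaffold median was -2.91 (*TJP3*). The 2 middle membrane values were then -2.92 (*CLDN1*) and -1.76 (*CLDN4*), so the scaffold median was the lower one. None was called higher in either layer, and 3 membrane genes and 1 scaffold gene did not pass the threshold. At an unadjusted p under 0.05 (limma) it was 6 membrane and 2 scaffold genes, against 3095 of the 9590 genes and 4909 of all 16811 genes. The groups did not overlap, with edited below wild-type libraries, for 4 of the 5 members with a mean of at least 10 and for 4 of the 4 under it, while this was so for 26.9% of the 9590 genes and for 30.2% of all genes. The calls rested on all 4 libraries. A fit without 1 library leaves 1 library in its group and no spread there, so only fitted changes are given for such fits. Over these fits the log2 fold change of *CLDN7* ran from -4.81 to -3.68 and that of *F11R* from -1.62 to -1.43. *MARVELD3*, *CGN* and *TJP3* stayed between -3.01 and -1.57. None of the 5 called members kept its call in every such fit.

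**Figure D2:**
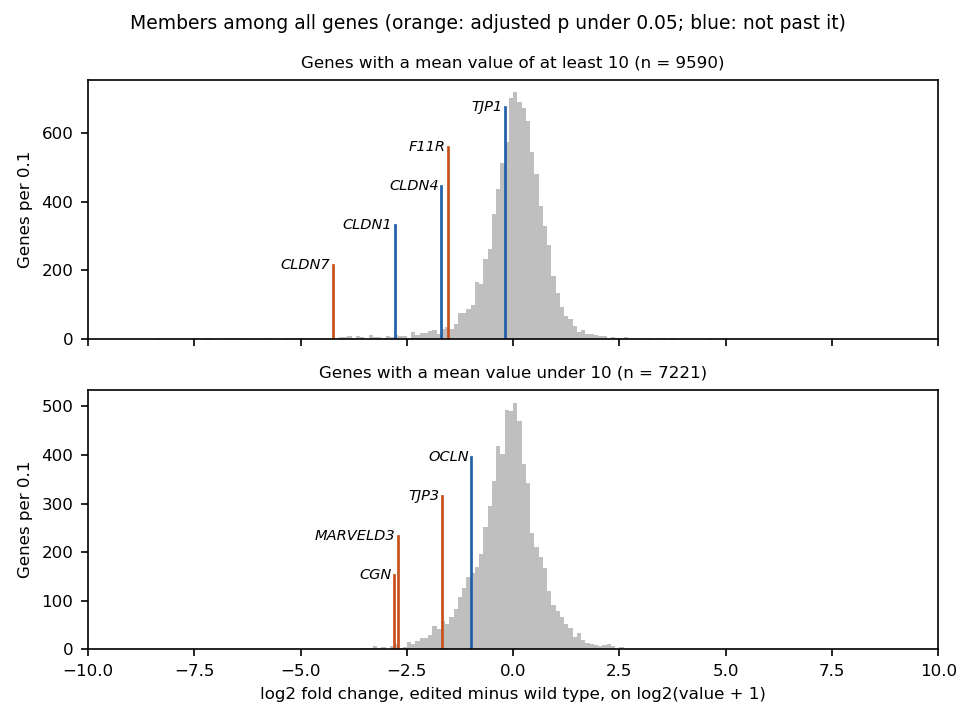
Distribution of log2 fold changes (edited minus wild type, bins of 0.1) over the 9590 genes whose mean value reached 10 and over those under it, with a line for each member (its height only separates the names), orange where the adjusted p was under 0.05 and blue where it was not. *CLDN7* at -4.25 and *CGN* at -2.80 lie in the left tails, and *TJP1* at -0.20 lies in the bulk of the genes.

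Other genes of the tight junction were taken from lists of claudins, membrane proteins, scaffold proteins and polarity complexes. Of 61 listed genes, 38 were analysed, of which 7 were called lower, 1 was called higher and 30 did not pass an adjusted p of 0.05 (limma). Among the 9590 genes whose mean reached 10, 4.2% were called lower and 2.89% higher, and among all genes 3.4% and 1.33%. The median log2 fold change of the 38 genes was -0.30. Of 21 other claudins only 4 were analysed, and 1 of them was called. *CLDN12*, a broadly expressed claudin, was listed at 11.7 and 15.1 in edited against 32.0 and 30.9 in wild-type libraries (-1.18 on the log2 scale, adjusted p = 0.0353 from limma). *CLDN11*, *CLDN15* and *CLDN23* had fitted changes from -0.76 to -0.18 that did not pass.

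Among the other membrane proteins, 3 of 6 analysed genes were called lower and 1 higher. The shares were 4.2% and 2.89% of the 9590 genes whose mean reached 10, and 3.4% and 1.33% of all genes. *CRB3*, which encodes the apical polarity protein Crumbs 3, was listed at 3.43 and 2.45 in edited against 37.6 and 28.6 in wild-type libraries, and edited cells kept 8.87% of its level (-3.11 on the log2 scale, adjusted p = 0.00865 from limma). *CRB3* reached a mean of 10 only through its wild-type libraries. *LSR*, the tricellular junction protein angulin-1, fell from 248 and 216 in wild-type to 46.9 and 58.5 in edited libraries (-2.12 on the log2 scale, adjusted p = 0.0103 from limma). *CXADR*, an adhesion protein that also serves as a virus receptor, was at 2.02 and 2.74 in edited against 10.5 and 11.9 in wild-type libraries (-1.86 on the log2 scale, adjusted p = 0.0285 from limma). *JAM3* moved the other way from its relative *F11R*. It encodes junctional adhesion molecule C, which is also found in endothelial and mesenchymal cells, and was listed at 36.6 and 43.3 in edited against 10.7 and 18.1 in wild-type libraries (1.45 on the log2 scale, adjusted p = 0.0431 from limma). The call of *JAM3* was lost with equal library totals (adjusted p = 0.0577 from limma), with cyclic loess normalization (0.0518) and without the filter (0.0557). With single libraries left out, which leaves 1 library in a group, its fitted change ran from 1.10 to 1.81. The call did not hold in every such fit.

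Most other scaffold genes did not pass the test. Of 16 analysed, 11 had a lower and 5 a higher fitted level, and 2 were called lower and 0 higher (limma). An unadjusted p under 0.05 (limma) was reached by 7 of them, against 3095 of the 9590 genes whose mean reached 10 and 4909 of all 16811 genes. Of the 9590 genes 43.3% had a lower fitted level and 4.2% were called lower, and of all genes 49.1% and 3.4%. *PATJ*, a multi-PDZ protein of the Crumbs complex, was listed at 17.0 and 18.9 in edited against 59.5 and 66.2 in wild-type libraries (-1.75 on the log2 scale, adjusted p = 0.0103 from limma). *PDZD2*, which encodes a protein with several PDZ domains, fell to 33.4% (-1.57 on the log2 scale, adjusted p = 0.0215 from limma). *YBX3*, a nucleic acid-binding partner of ZO-1 and the most abundant gene of this list, was at 663 and 783 in edited against 889 and 659 in wild-type libraries (-0.09 on the log2 scale, adjusted p = 0.830 from limma), and its groups overlapped.

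Of 12 analysed genes of the polarity complexes, 1 was called, close to the share over the genes whose mean reached 10 (7.09%, and 4.73% over all genes). *DLG1*, a scaffold of the basolateral Scribble complex, was at 59.8 and 56.8 in edited against 110 and 145 in wild-type libraries (-1.10 on the log2 scale, adjusted p = 0.0441 from limma). *CDC42*, the small GTPase that activates the Par complex, was the most abundant of the list at 287 and 300.4 in edited against 321 and 301 in wild-type libraries (-0.08 on the log2 scale, adjusted p = 0.800 from limma). *DLG1* lost the call without the filter (adjusted p = 0.0503 from limma). Fits without 1 library leave 1 library in a group, so only fitted changes are given for them. The 7 other tight junction genes called lower stayed lower in each such fit, from -3.30 (*CRB3*) to -0.90 (*DLG1*). None of the 7 kept its call in every such fit.

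**Figure D3:**
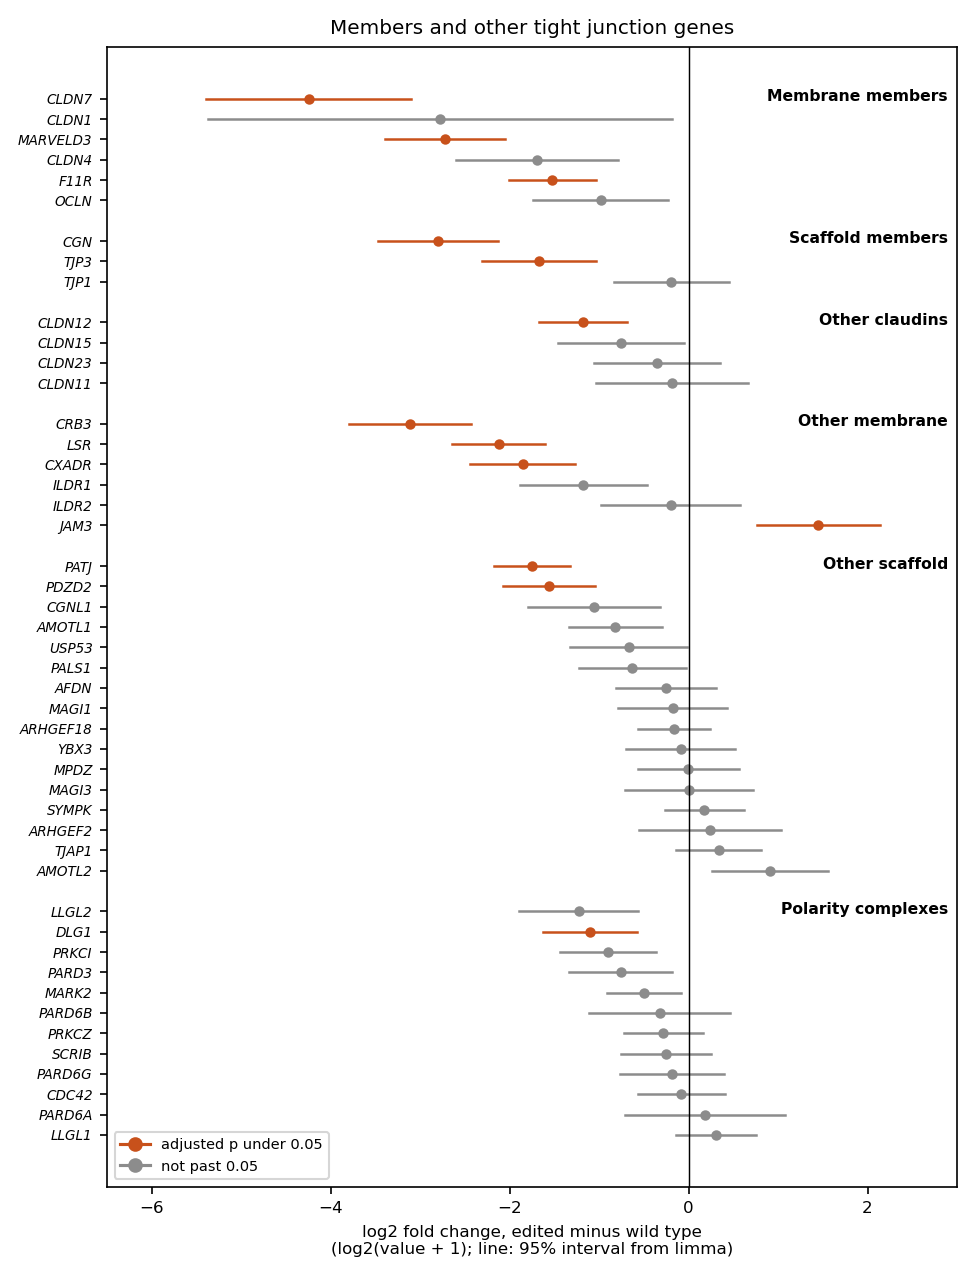
log2 fold change (edited minus wild type, on log2(value + 1)) of the 9 members and the 38 other tight junction genes, with 95% intervals from limma, orange where the adjusted p was under 0.05 and grey where it was not. The called genes lie from *CLDN7* (-4.25) to *DLG1* (-1.10) on the lower side, and *JAM3* (1.45) is the called gene on the higher side.

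Other cell junctions were set beside these values. The shares called were 4.2% lower and 2.89% higher of the 9590 genes whose mean reached 10, and 3.4% and 1.33% of all genes. A lower fitted level was found for 43.3% of the 9590 genes and for 49.1% of all genes. Of 10 analysed desmosome genes, 5 were called lower, with a median log2 fold change of -1.30, led by *DSG3* (-3.35), *PKP1* (-2.94) and *DSC3* (-2.66). Of 11 analysed cadherin, catenin and nectin genes, 6 had a lower and 5 a higher fitted level, and 3 were called lower (*CDH1*, *CDH3* and *NECTIN4*) and 1 higher (*CDH2*), with a median of -0.03. A difference between the junction types was not tested.

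Among 17 analysed transcription factors that are known to act on epithelial junction genes, 8 were called lower and 2 higher. Of the 9590 genes whose mean reached 10, 4.2% were called lower and 2.89% higher, and of all genes 3.4% and 1.33%. Factors that raise and factors that lower junction genes were not listed apart. The 3 with the smallest p were *EHF* (log2 fold change -6.30), *ELF3* (-3.93) and *GRHL2* (-4.64), all lower, and *GRHL2*, a grainyhead factor, was listed at 0.137 and 0.0460 in edited against 26.0 and 26.2 in wild-type libraries. *EHF* (edited mean 0.392) and *GRHL2* (edited mean 0.0917) reached a mean of 10 only through their wild-type libraries. The part of the transcription factors in the values of the tight junction genes was not tested.

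The tested genes outside these lists whose pattern over the 4 libraries was most like that of the membrane genes were *CXCL16*, *GLUL*, *FCGRT*, *ERBB3* and *SH3YL1*. Their centred log2(value + 1) lay within a Euclidean distance of 0.39 to 0.68 of the median profile of the 4 membrane genes with a mean of at least 10. In that profile wild-type replicate 1 was at 1.90 and wild-type replicate 2 at 0.65, against -1.21 and -0.96 in edited replicates 1 and 2. With only 4 libraries many genes share such a profile.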

How the data were processed

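RNA was sequenced from 2 edited and 2 wild-type MCF12A libraries. The authors deposited 1 table of 16811 gene symbols with a normalized expression signal per library. The submitters' processing notes name Salmon, HISAT2 and hg38, without roles; versions, annotation and normalization are not given in the sources used here. The values were not counts: nearly all were distinct within a library (16268 of 16597 values above 0 in edited replicate 1), so no single step per read was shared by all genes. A step per kb was chosen in each library for the greatest excess of whole multiples, so their share is a selected maximum. Among 1022 genes with 1 GENCODE 44 transcript, 21.5% to 24.8% of those in range were whole multiples (1 to 8, within 0.03) of that step. For evenly spread values and a step fixed beforehand, 6% is expected. Reads could thus not be rebuilt gene by gene, and no count model was run.

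The 2 groups were set against each other on log2(value + 1) in limma 3.58.1 (lmFit, eBayes with trend; R 4.3.3), over genes with a mean of at least 10. No replicate block was used. P-values were adjusted by Benjamini-Hochberg over all genes tested, with a threshold of 0.05 and 0.001 as an alternative. Genes under that mean were tested among all genes. Some genes reached a mean of 10 through the wild-type libraries alone, among them *CLDN7*, *CRB3*, *DSG3*, *CDH1*, *EPCAM*, *COL1A1*, *EHF* and *GRHL2*. An exact permutation test of 2 against 2 libraries cannot go below p = 0.333. The scripts were tested on simulated data. The members and lists were chosen with earlier results of these data known. A gene of the lists is not reported here. All members were named, as were other tight junction genes under an adjusted p of 0.05, the most abundant gene of each list, and up to 3 genes of each comparison list with the smallest p. *CDH2*, *CLDN11*, *CLDN15*, *CLDN23* and marker genes were named after their values were seen. Positions and promoters came from RefSeq (GRCh38.p14), transcript lengths from GENCODE 44. Alternatives varied the pseudocount, filter, scaling, variance trend, block and threshold, and left out each library.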

Additional observations from a re-analysis of the deposited data

How the results depend on the processing

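Under the 8 alternatives in pseudocount, filter, scaling and variance trend, the 9 members kept their direction, and their side of the threshold in 71 of 72 results. The exception was *CLDN4*, which passed with equal library totals (6 members called, log2 fold change -1.81). That scaling moved the median of all genes by -0.12. Some of the 72 results could not change. The 4 members with a mean under 10 were tested among all genes under either filter alternative, which repeats their main fit. *CLDN4* and *TJP1*, whose means lie under 50, likewise gave the same result under both filter alternatives. The log2 fold change of *CGN* ran from -4.57 to -1.26 and that of *TJP3* from -2.91 to -0.64 between pseudocounts of 0.1 and 5. The number of genes called was 680, and 419 (191 lower and 228 higher) with a mean of at least 50. At an adjusted p under 0.001 it was 1 gene and 0 members (limma, with 8 members and 3095 of the 9590 genes at an unadjusted p under 0.05). Leaving out single libraries, it ranged from 4 to 1431 genes (4 without wild-type replicate 2, 47 without wild-type replicate 1, 424 without edited replicate 1 and 1431 without edited replicate 2) and from 0 to 4 members. Over these fits *TJP1* ranged from -0.52 to 0.12 and *YBX3* from -0.30 to 0.13; *TJP1* reversed without wild-type replicate 2, and *YBX3* without edited replicate 1 (0.03) and wild-type replicate 1. The labels do not say whether same-numbered libraries were handled together. Their deviations from the group means correlated at -0.14 over 9590 genes. With 2 libraries per group, the crossed pairing must give the same value with the opposite sign (0.14). This correlation can thus not decide whether the libraries were paired. With the replicate block 133 genes and 2 members (*CLDN7* and *CLDN4*) were called. Of the 5 members called without it, only *CLDN7* kept the call. *F11R* (adjusted p = 0.0548 from limma), *MARVELD3* (0.0544), *CGN* (0.0544) and *TJP3* (0.0740) lost it. So did *CLDN12* (adjusted p = 0.0727 from limma), *CXADR* (0.0659), *JAM3* (0.0661), *PDZD2* (0.0582) and *DLG1* (0.0749). With the crossed pairing, chosen after seeing the data, 1002 genes and 6 members were called. These 6 included *CLDN1* and *CLDN4*, while *TJP3* lost the call (adjusted p = 0.0504 from limma). The causes of these changes were not tested. Members with 11 to 13 reads in an edited library have wide counting error there.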
